A study of Rattus norvegicus with 65 samples.

Results

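Primary neonatal rat cardiomyocytes given doxorubicin (Dox) for 24 hours were compared with parallel cultures given only the solvent, in 7 Dox and 7 control libraries of the 65 in the series. The libraries were chosen by their labels alone, every Dox and DMSO2 library at 24 hours was used, and all 14554 genes of the deposited count table were tested. The cells came from the hearts of newborn rats of several litters, were mixed before plating and were starved of serum overnight. The Dox wells held 1.25 µM Dox in 0.25% DMSO and the control wells (DMSO2) 0.25% DMSO without drug. The other libraries hold 6 hour samples, acetaminophen (Ace) with the same DMSO2 control, and 5-fluorouracil (5FU) with a control of its own (DMSO1, 1% DMSO). Strain, sex and genotype were not given in the sources used here. Because the wells came from 1 mixed preparation, p-values measure the spread between parallel cultures, which may be technical.

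Dox is an anthracycline used against many cancers, and its use is limited by damage to the heart. It slips between the base pairs of DNA and traps type II topoisomerases on the strands they have cut, and the breaks that follow activate the transcription factor p53. It also displaces histones from chromatin and takes part in reactions that form reactive oxygen. Heart muscle cells depend on a tightly packed contractile apparatus, on calcium release and re-uptake at each beat, and on mitochondria that burn mostly fatty acids.

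The Dox libraries held 15921229 to 25738297 counts and the DMSO2 libraries 17277845 to 21413498. Dox library 7 (numbered by its column) stood apart, with the highest total and with 165 of 12268 measured genes off the median of its group by more than 1 on the log2 scale, against 10 to 28 in the other Dox libraries. Without it, 11740 genes passed the test in place of 11846, of which 11569 were shared, all with the same sign. Some muscle and cytoskeletal transcripts were far lower in library 7 than in the other 6, and log2 fold changes without it are given beside several of those named. Fibroblast marker transcripts summed to 15438 to 19288 CPM (counts scaled to the same library total) in DMSO2 and 1982 to 4170.4 in Dox. Cardiomyocyte markers summed to 44183 to 56352 CPM in DMSO2 and 27145 to 36300.2 in Dox, and all 12 of them were detected in both groups. These sums include Nppa, the 1 marker that rose, at 764 to 1494 CPM in DMSO2 and 10914 to 13688 in Dox. The sums therefore understate the fall of the other markers.

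Dox changed most of the measured transcriptome, and the changes were often large. Differentially expressed genes (DEGs, at a Benjamini-Hochberg FDR below 0.01 in edgeR's quasi-likelihood test) made up 81.4% of all genes, 40.4% higher and 41% lower in Dox. The median absolute log2 fold change of the DEGs was 0.96, a 1.94-fold difference. Significance alone therefore separated few genes, and size was more selective: 19.8% of all genes were DEGs higher by at least 1 on the log2 scale and 19.3% DEGs lower by at least 1. At larger sizes the rises outnumbered the falls. At a log2 fold change of at least 2 there were 1276 rises and 919 falls, at 3 there were 691 and 291, at 4 there were 413 and 97, and at 5 there were 233 and 39. Of the 233 rises of at least 5, 196 had a mean count under 10 in DMSO2, so the upper end was made mostly of transcripts near absence in the control. The values of the groups did not overlap for 68.2% of genes, 33.6% wholly higher and 34.6% wholly lower. Only 647 genes had a 95% interval that lay within 0.2 of no change on the log2 scale.

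**Figure D1:**
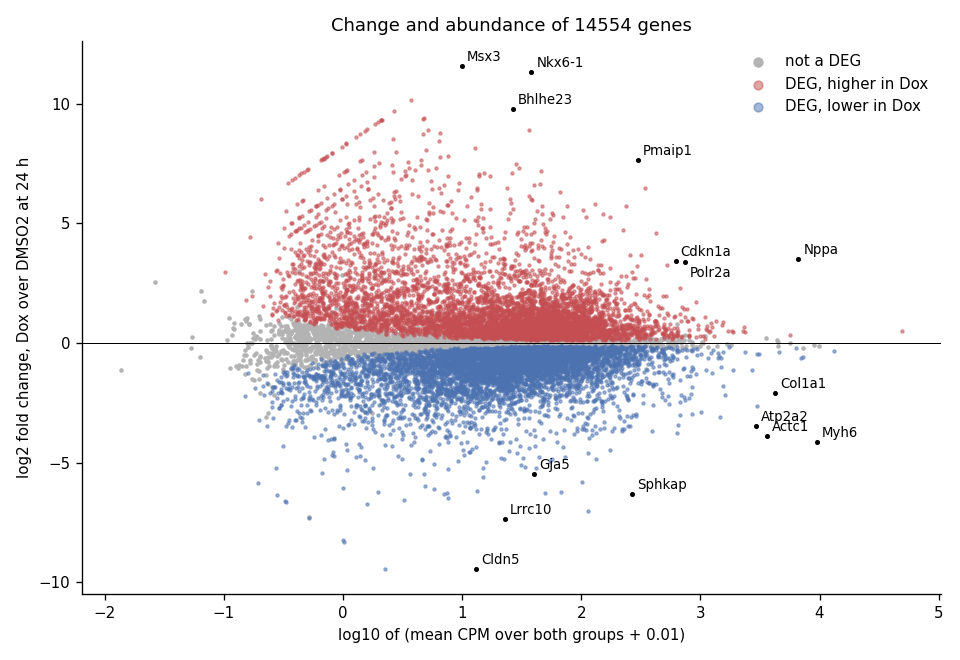
Each dot is a gene, with its mean abundance over both groups on the horizontal axis (log10 of CPM + 0.01) and its log2 fold change, Dox over DMSO2 at 24 hours, on the vertical axis. The largest rises lie at low abundance on the left, and the most abundant genes that fell, Myh6, Actc1, Atp2a2 and Col1a1, lie at the lower right.

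Shares of the RNA pool describe the size of these changes. DEGs higher by at least 1 took up 4.92% of DMSO2 CPM and 17.9% of Dox CPM, and DEGs lower by at least 1 took up 23.7% and 6.61%. The direction of both shifts follows from choosing the genes by their change in the same libraries, and is no further evidence. The largest gain in CPM with a gene name was that of Nppa, which encodes atrial natriuretic peptide and ran from 764 to 1494 CPM (median 1017) in DMSO2 and from 10914 to 13688 CPM (median 12215) in Dox. The group means differed 11.5-fold, with a log2 fold change of 3.52 ± 0.17 (± SE, as throughout). Polr2a, the largest subunit of RNA polymerase II, ran from 95.3 to 149 CPM (median 132) in DMSO2 and from 1122 to 1433 CPM (median 1377) in Dox, a log2 fold change of 3.40 ± 0.16. Cdkn1a, the p53-induced cell cycle inhibitor p21, ran from 93.4 to 116 CPM (median 104) in DMSO2 and from 908 to 1407 CPM (median 1080.2) in Dox and was also among the 6 largest gains, as was the intermediate filament gene Des, which ran from 1671 to 1915 CPM in DMSO2 and 1606 to 3416 in Dox, overlapping through library 7 alone (log2 fold change 0.69 ± 0.11, and 0.82 without it). The other 2 of the 6 gains carry identifiers for which the name tables used here give no symbol, 26195 and 26202, with log2 fold changes of 0.50 ± 0.15 and 0.33 ± 0.11. The call of 26202 was lost without library 7 and without DMSO2 library 4.

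The largest losses in CPM were of muscle and matrix transcripts. Myh6, the alpha myosin heavy chain that is the main motor of the adult rat heart, ran from 14327 to 21397 CPM (median 17852) in DMSO2 and from 896 to 1093 CPM (median 1027) in Dox, and the DMSO2 mean was 17.5 times the Dox mean. Actc1, cardiac alpha actin, ran from 4990.0 to 7891 CPM (median 7115) in DMSO2 and from 90.1 to 577 CPM (median 504) in Dox, where the lowest Dox value was library 7, and its log2 fold change was -3.89 ± 0.23 (-3.68 without that library). Atp2a2, the pump SERCA2 that returns calcium to the sarcoplasmic reticulum, ran from 5023 to 5927 CPM (median 5252) in DMSO2 and from 434 to 509 CPM (median 488) in Dox. The collagen chains Col1a1 and Col3a1 had log2 fold changes of -2.09 ± 0.16 and -2.64 ± 0.11, with no overlap between the groups. The remaining loss, identifier 26204, had a log2 fold change of -0.35 ± 0.13 and an adjusted p of 0.0084 in edgeR's quasi-likelihood test, and the call was lost with DESeq2 and without any 1 of 10 libraries.

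**Figure D2:**
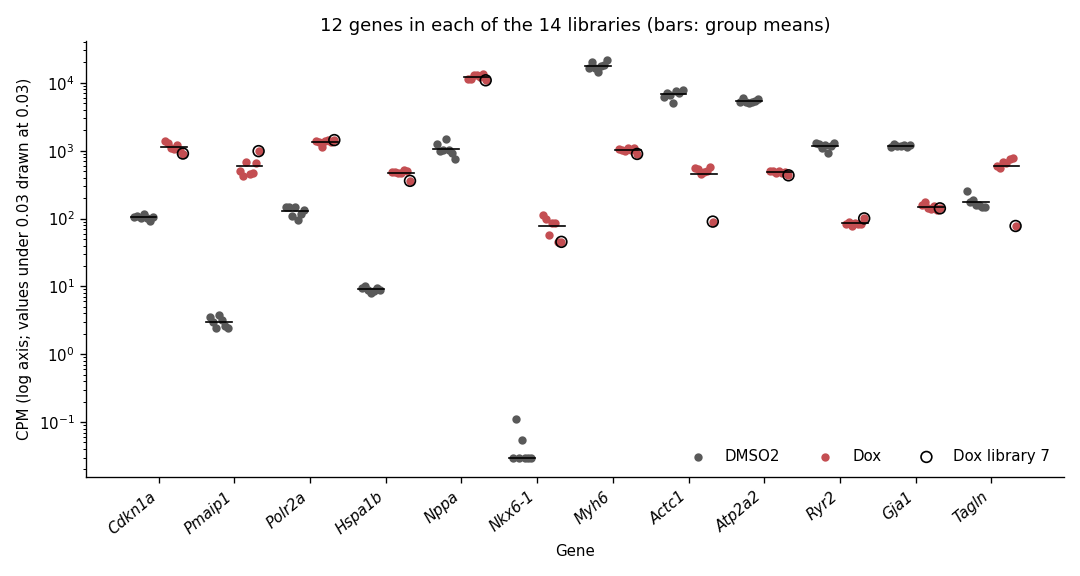
CPM on a log axis for 12 genes in each of the 14 libraries, DMSO2 in grey and Dox in red, with bars at the group means and a ring around Dox library 7. The groups are apart for 11 of the genes, and for Tagln library 7 lies below the DMSO2 values while the other 6 Dox libraries lie above them.

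Among genes with a mean count of at least 100 over the libraries, the largest rises were led by transcription factors of the nervous system and pancreas that heart cells barely express. Msx3, a homeobox factor of the dorsal neural tube, was at 3 counts or fewer in every DMSO2 library and was at least 124-fold higher in Dox (17.3 to 23.1 CPM). Nkx6-1, a homeobox factor of motor neuron and beta cell development, was at least 474-fold higher, with 45.3 to 114 CPM (median 85.8) in Dox and 0 to 0.110 CPM in DMSO2. The basic helix-loop-helix factor Bhlhe23 was at least 330.1-fold higher and the neural factor Sox3 at least 80.6-fold. The lipocalin Lcn3 was at least 157-fold higher, the secreted Wnt deacylase Notum at least 79.99-fold and the progesterone receptor Pgr at least 78.9-fold. None of these genes overlapped between the groups, which follows from their choice by size of rise and is no further evidence. With 3 counts or fewer in each DMSO2 library, they reached the mean count of 100 through the Dox libraries. Over all genes, 33.6% were wholly higher in Dox.

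The others of the 12 largest rises had more than 3 counts in a DMSO2 library, most of them only just. The highest DMSO2 count was 4 for Pou3f1, 7 for Ppp2r2c, 10 for Nptx2 and 11 for LOC103690190, against 71 for Pmaip1. Apart from Pmaip1, the sizes of these rises therefore rest on few control counts. Ppp2r2c, a regulatory subunit of protein phosphatase 2A, ran from 0 to 0.399 CPM in DMSO2 and 57.3 to 81.2 in Dox. Pmaip1 encodes the pro-apoptotic protein Noxa and ran from 2.43 to 3.80 CPM (median 3.03) in DMSO2 and from 426 to 985 CPM (median 496) in Dox, a log2 fold change of 7.63 ± 0.19, and library 7 was the highest of the Dox libraries. The neuronal pentraxin Nptx2 and the POU factor Pou3f1 had log2 fold changes of 7.32 ± 0.20 and 7.32 ± 0.37, and LOC103690190, which has no described role here, 7.49 ± 0.23.

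The neural and endodermal developmental factors, a list of 18 measured genes, showed the same direction, although the list was drawn up with such rises known and is no independent evidence of their direction. Of these, 17 rose, 16 of them by at least 1, and none fell, and the median log2 fold change was 3.13 with the genes absent in DMSO2 set to their lower bounds. The list named 38 genes, and those not in the count table could not be tested. A scarce gene could enter that table through the Dox libraries, and a gene near absence in DMSO2 has little room to fall. The counts are therefore no test of direction. Most stayed scarce in absolute terms: the eye and brain factor Pax6 reached 1.05 to 2.54 CPM and the oligodendrocyte factor Olig1 0.605 to 3.05. Sox8 and Sox9, factors of neural crest and cartilage, were more abundant, with 68.6 to 96.3 and 54.4 to 66.5 CPM in Dox against 1.71 to 2.89 and 13.0 to 16.4 in DMSO2. Nkx2-1, the factor of lung and thyroid, was the member that did not pass the test, at 0.50 ± 0.30 on the log2 scale.

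The largest falls were of cardiac and endothelial genes. Cldn5, a tight junction protein of endothelium that heart muscle cells also carry, ran from 19.5 to 33.7 CPM in DMSO2 and from 0 to 0.173 in Dox, where no library had more than 3 counts, and was at least 158-fold lower. Lrrc10, a protein of the cardiac Z-disc, ran from 40.5 to 54.9 CPM in DMSO2 and 0 to 0.804 in Dox. Sphkap, an anchor for protein kinase A that binds sphingosine kinase, ran from 509 to 547 CPM (median 535) in DMSO2 and from 5.38 to 7.97 CPM (median 6.63) in Dox, a log2 fold change of -6.32 ± 0.12. The muscle substrate receptors Asb18, Asb12 and Fbxl22, which bring proteins to ubiquitin ligases, had log2 fold changes of -6.08 ± 0.23, -5.58 ± 0.14 and -5.79 ± 0.16. Gja5, the fast-conducting connexin 40 of the atria and conduction system, ran from 71.6 to 87.5 CPM (median 79.6) in DMSO2 and from 1.53 to 1.99 CPM (median 1.76) in Dox. The ephrin receptor Epha3 had a log2 fold change of -6.28 ± 0.23. Fam163b, Atp6ap1l and C6h14orf180, whose functions are little described, were also among the 12 largest falls, with -6.30 ± 0.24, -6.22 ± 0.16 and -6.19 ± 0.22.

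Across 60 gene lists the direction varied widely, and most lists held genes that rose beside genes that fell. By fitted log2 fold changes, the lists with the highest medians were developmental factors (4.28), histones (3.68) and p53 targets. Those with the lowest were endothelial markers, fibroblast markers, ion channels, macrophage markers and sarcomere genes. With genes at 3 counts or fewer in 1 group set to their bounds, developmental factors stood at 3.13 and histones at 3.56, the other order. Macrophage markers then stood at -1.16 in place of -1.33, above the sarcomere genes at -1.31. For all genes tested, the median log2 fold change was 0.0028 and the quartiles were -0.77 and 0.77, so that a list median near 0 is that of the whole table. Likewise, 40.4% of all genes rose and 41% fell. A list with rises and falls near these shares moved as the whole table did.

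**Figure D3:**
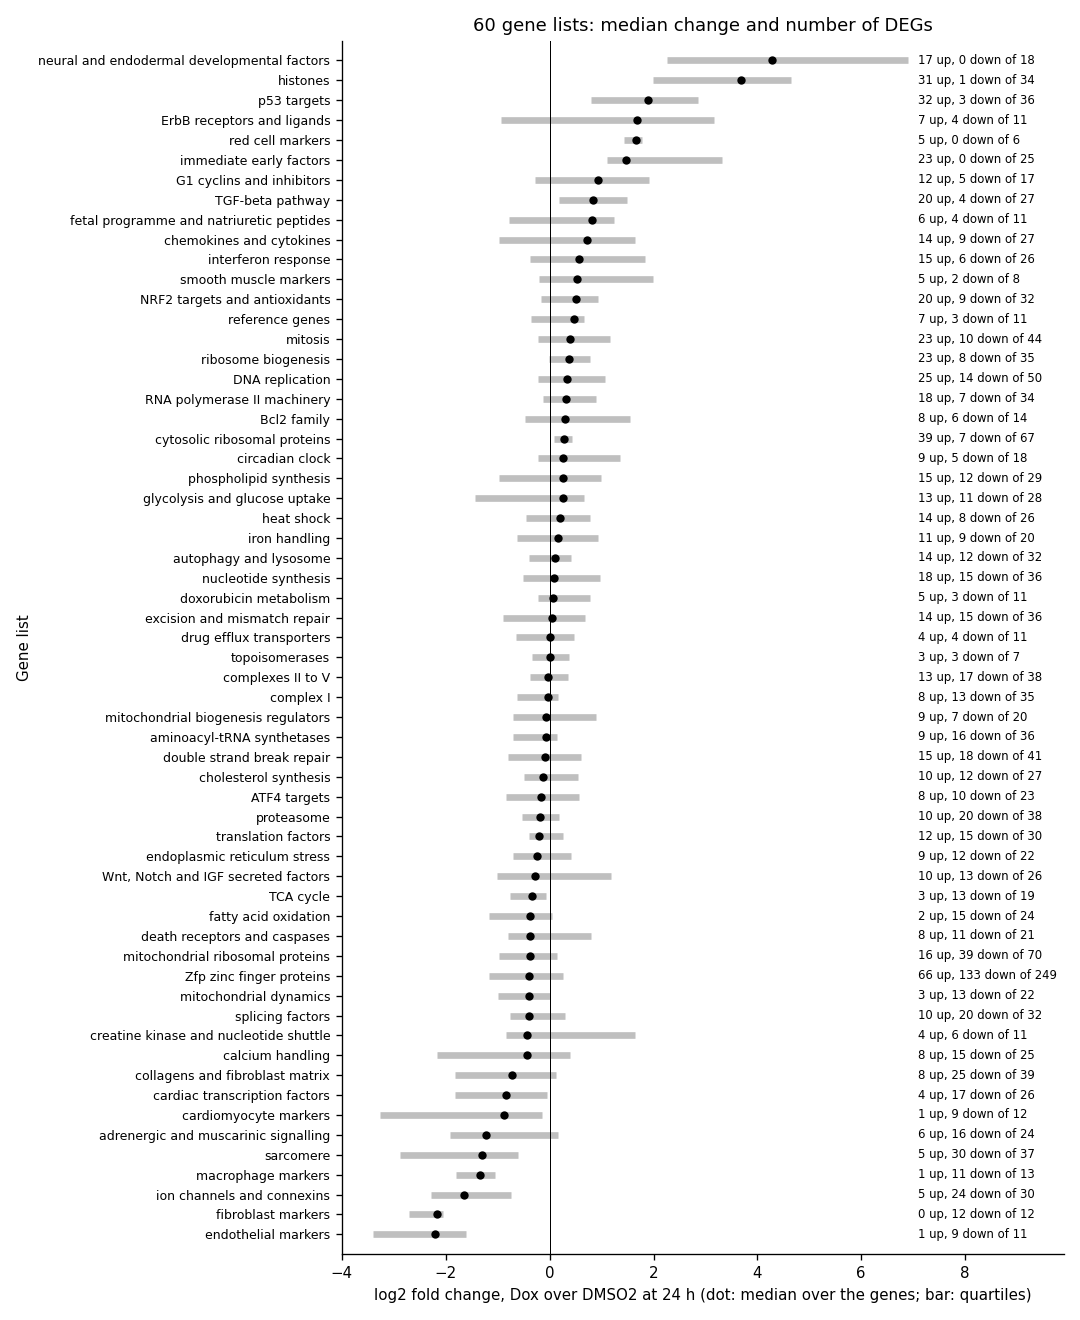
The 60 gene lists ordered by the median fitted log2 fold change of their genes (no bounds used), Dox over DMSO2 at 24 hours. Bars run from the lower to the upper quartile, and the number of DEGs up and down is at the right. The list of developmental factors is at the top with 17 of 18 up, and endothelial markers are at the bottom with 9 of 11 down.

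Most p53 targets rose: 32 of 36 rose and 3 fell, with a median log2 fold change of 1.89. The groups did not overlap for these 35, which are the members called DEGs. Over all genes, 40.4% rose, 41% fell and 68.2% did not overlap. Beside Pmaip1 and Cdkn1a, the growth factor Gdf15 ran from 6.27 to 8.24 CPM in DMSO2 and 169 to 447 in Dox. The antiproliferative gene Btg2 and the ephrin receptor Epha2 had log2 fold changes of 3.67 ± 0.12 and 5.27 ± 0.13. Mdm2, the ubiquitin ligase that removes p53, ran from 49.8 to 56.9 CPM in DMSO2 and 308 to 412 in Dox, and the phosphatase Ppm1d, another brake on p53, had a log2 fold change of 1.11 ± 0.06. The 3 that fell were the repair nuclease Ercc5 at -0.62 ± 0.09, the membrane protein Perp at -0.86 ± 0.05 and the stress sensor Sesn1 at -1.11 ± 0.09, while its relative Sesn2 rose, at 1.64 ± 0.09.

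Genes of cell death moved in both directions, as did all genes, of which 40.4% rose and 41% fell. Of the Bcl2 family, 8 of 14 rose and 6 fell. The pro-apoptotic members Bid and Bax rose with log2 fold changes of 2.58 ± 0.08 and 1.65 ± 0.11, and so did the protective Bcl2l1 (Bcl-xL), at 1.87 ± 0.09, while Bak1 and Bcl2 fell, at -0.72 ± 0.05 and -0.86 ± 0.12. Of 21 death receptor and caspase genes, 8 rose and 11 fell. The death receptor Fas went from 5.39 to 7.70 CPM in DMSO2 to 43.2 to 52.4 in Dox, and Ripk3, a kinase of necroptosis, rose by 2.36 ± 0.12 on the log2 scale. The initiator Casp8 fell, at -1.05 ± 0.12, as did the inflammatory Casp4, at -2.01 ± 0.11.

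The cell cycle genes did not move as 1 block. Of 17 G1 genes, 12 rose and 5 fell, and 12 rose and 3 fell without Dox library 7. The inhibitor Cdkn1c (p57) ran from 28.0 to 38.4 CPM (median 35.4) in DMSO2 and from 658 to 914 CPM (median 837) in Dox, a larger change than that of Cdkn1a at 4.58 ± 0.11 on the log2 scale. Rb1, the retinoblastoma protein, and the cyclin Ccnd1 rose, at 2.38 ± 0.07 and 2.12 ± 0.08, and the kinase Cdk4 and cyclin Ccnd3 fell, at -1.28 ± 0.05 and -1.07 ± 0.04. Of 50 DNA replication genes, 25 rose and 14 fell. The transcription factor E2f1 went from 7.86 to 10.8 CPM in DMSO2 to 90.3 to 125 in Dox. The licensing factor Cdt1 and its inhibitor Gmnn (geminin) both rose, at 2.06 ± 0.11 and 2.93 ± 0.11. The helicase subunit Mcm2 and the catalytic subunit of polymerase delta, Pold1, fell, at -2.07 ± 0.07 and -2.04 ± 0.095. Of 44 mitosis genes, 23 rose and 10 fell: the spindle protein Ckap2 reached 4.70 ± 0.19 and the regulator Mybl2 2.89 ± 0.09, while Cdk1, the kinase that starts mitosis, fell, at -1.71 ± 0.10, and the proliferation marker Mki67 fell, at -0.55 ± 0.12.

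DNA repair genes also ran both ways, in shares close to the 40.4% higher and 41% lower of all genes. Of 41 genes of break repair and the Fanconi pathway, 15 rose and 18 fell, and of 36 genes of excision and mismatch repair, 14 rose and 15 fell. In end joining, the ligase Lig4 rose (2.52 ± 0.09) while its partner Xrcc4 (-0.98 ± 0.09), the kinase Prkdc (-1.54 ± 0.09) and the end-binding Xrcc5 (-1.40 ± 0.06) fell on the log2 scale. Brca1 and Rad50 rose, at 1.99 ± 0.099 and 1.11 ± 0.06, and the break sensor Nbn and the scaffold Tp53bp1 fell, at -1.01 ± 0.05 and -1.52 ± 0.05. The mismatch repair gene Msh6 rose, at 1.61 ± 0.05, and Msh3 fell, at -1.99 ± 0.095. Parp1, the abundant sensor of strand nicks, ran from 221 to 248 CPM in DMSO2 and 90.4 to 108 in Dox.

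Among 7 topoisomerase genes, 3 rose and 3 fell, beside 40.4% and 41% of all genes. Top2a, the isoform of dividing cells and a target of Dox, fell from 30.6 to 41.4 CPM in DMSO2 to 13.4 to 21.5 in Dox, a log2 fold change of -1.15 ± 0.10. Top1mt, the mitochondrial enzyme, rose, at 1.35 ± 0.08.

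Most sarcomere genes fell. Of 37, 5 rose and 30 fell, 24 of them by at least 1, and the median log2 fold change was -1.31. The motor and its partners fell unequally. Myh6 fell (-4.13 ± 0.11) far more than the slow isoform Myh7 (-1.12 ± 0.22, and -0.96 without Dox library 7), and of the troponins the cardiac inhibitory subunit Tnni3 fell most (-2.87 ± 0.08). The calcium-binding Tnnc1 (-0.63 ± 0.09, and -0.50 without library 7) and the fetal isoform Tnni1 (-0.61 ± 0.05, and -0.58) differed by less than their SE, and Tnnt2 fell least (-0.21 ± 0.06). The ventricular light chain Myl2 ran from 3952 to 4814 CPM (median 4301) in DMSO2 and from 3570.3 to 5308 CPM (median 4539) in Dox and did not pass the test, nor did Myl3 at 0.13 ± 0.06, while the atrial and fetal light chain Myl4 rose (1.41 ± 0.15). Myl3 passed, at 0.17 to 0.20, with DESeq2, with DESeq2 size factors, with library size alone and without Dox library 7. Proteins of the M-band and Z-disc were among the steepest falls: Myom2 -3.79 ± 0.15, Myom1 -2.50 ± 0.08, Ldb3 -3.42 ± 0.09, Nexn -3.49 ± 0.12 and Nebl -3.07 ± 0.09 on the log2 scale. Mylk3, the cardiac kinase of myosin light chain, ran from 456 to 489 CPM in DMSO2 and 35.8 to 49.1 in Dox. Besides Des and Myl4, the small heat shock protein Cryab rose, at 1.72 ± 0.11, and so did skeletal actin Acta1, with 308 to 577 CPM in DMSO2 and 157 to 1082 in Dox, groups that overlapped. The call of Acta1 was lost without any 1 of 6 libraries (DMSO2 2, 5, 6 or 7, or Dox 5 or 6), with log2 fold changes of 0.70 to 0.78, and its log2 fold change was 1.01 without Dox library 7.

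The fetal isoforms did not share a direction. Nppa and Acta1 rose and Myh7 and Ankrd1 fell, Ankrd1 at -3.69 ± 0.23 on the log2 scale. Nppb, brain natriuretic peptide, passed the test with overlapping groups (16.4 to 23.1 CPM in DMSO2 and 14.2 to 55.02 in Dox). The receptor Npr1 rose, at 1.39 ± 0.08, and Corin, the protease that matures natriuretic peptides, fell, at -1.11 ± 0.16. Of the 11 genes of this list, 6 rose and 4 fell.

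Among calcium handling genes the falls outnumbered the rises. Of 25, 8 rose and 15 fell. Ryr2, the channel that releases calcium from the sarcoplasmic reticulum, ran from 938 to 1319 CPM (median 1222) in DMSO2 and from 77.8 to 101 CPM (median 83.4) in Dox. The sodium-calcium exchanger Slc8a1, the reservoir protein Hrc and the SERCA2 inhibitor Pln had log2 fold changes of -3.61 ± 0.07, -3.63 ± 0.097 and -3.10 ± 0.08. The buffer Casq2 fell less, at -0.44 ± 0.07, and its skeletal relative Casq1 rose, at 1.75 ± 0.15. The store-operated entry genes Stim1 and Orai1 rose, at 1.66 ± 0.07 and 0.57 ± 0.07.

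Channels and connexins were the list with the lowest median outside the other cell types, at -1.64 on the log2 scale, with 5 of 30 higher and 24 lower, 20 of these by at least 1. The pore of the L-type calcium channel, Cacna1c, fell, at -2.54 ± 0.11. Gja1, connexin 43, the main connexin of the working ventricle, ran from 1139 to 1262 CPM (median 1179) in DMSO2 and from 135 to 176 CPM (median 144) in Dox. The potassium channels of repolarization Kcnh2 and Kcnq1 fell, at -1.40 ± 0.08 and -1.57 ± 0.06, and so did the pore Kcnj11 (-3.01 ± 0.07) and the subunits Abcc8 (-2.60 ± 0.096) and Abcc9 (-2.29 ± 0.09) of the ATP-sensitive potassium channel. The pacemaker channels Hcn4 and Hcn2 rose, at 0.84 ± 0.10 and 0.70 ± 0.18.

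Most genes that relay autonomic signals fell. Of 24 adrenergic and muscarinic signalling genes, 6 rose and 16 fell. Adrb1, the main beta receptor of heart muscle, went from 33.4 to 60.8 CPM in DMSO2 to 8.09 to 12.9 in Dox, without overlap. The muscarinic receptor Chrm2 ran from 129 to 150.1 CPM (median 140.5) in DMSO2 and from 4.28 to 5.72 CPM (median 5.09) in Dox and the alpha receptor Adra1a had a log2 fold change of -4.14 ± 0.18. The kinase anchor Akap6 and the receptor kinase Grk5 fell, at -3.53 ± 0.10 and -2.43 ± 0.06.

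Of 26 cardiac transcription factors, 4 rose and 17 fell, 11 of them by at least 1. Nkx2-5 ran from 241 to 273 CPM in DMSO2 and 38.3 to 42.6 in Dox, the ventricular factor Irx4 had a log2 fold change of -3.47 ± 0.08, and Mef2c, Tbx20 and Gata6 had -2.50 ± 0.07, -2.33 ± 0.09 and -1.92 ± 0.07. Gata4 fell less, at -0.38 ± 0.07. The factors that rose included Tbx3 (2.88 ± 0.11) and Hand1 (2.43 ± 0.12), and to a smaller degree Irx5 (0.94 ± 0.07). Tbx3 is a factor of the pacemaker and conduction tissue.

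The ErbB receptors, which keep heart muscle cells alive under stress, and their ligands moved in both directions. Of 11 genes, 7 rose and 4 fell, beside 40.4% and 41% of all genes. Erbb4, the main receptor for neuregulin in these cells, ran from 19.6 to 25.5 CPM in DMSO2 and 1.81 to 2.68 in Dox, and Erbb2 and Egfr fell, at -0.62 ± 0.08 and -1.25 ± 0.10. Erbb3 rose, at 3.59 ± 0.17, as did the ligands Hbegf (3.41 ± 0.11), Areg (2.91 ± 0.22) and Nrg1 (1.55 ± 0.13), while the ligand Btc fell (-1.58 ± 0.15).

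Genes of the respiratory chain mostly changed by little. Of 35 subunits of complex I, 8 rose and 13 fell, and of 38 subunits of complexes II to V, 13 rose and 17 fell, none of these 38 by 1 or more in either direction. The median log2 fold changes, -0.030 for complex I and -0.023 for complexes II to V, turned positive with DESeq2 size factors or library size alone. The 5 subunits of complex I that fell by at least 1 were Ndufs7 (-1.58 ± 0.07), Ndufs8 (-1.30 ± 0.08), Ndufb10 (-1.22 ± 0.08), Ndufv2 (-1.21 ± 0.07) and Ndufs3 (-1.04 ± 0.06), of which all but Ndufb10 belong to the conserved catalytic core, and the largest rise was that of the accessory subunit Ndufa7 (0.74 ± 0.07). Of 19 genes of the TCA cycle, 3 rose and 13 fell, led by Dlat of the pyruvate dehydrogenase complex at -1.56 ± 0.06. Of 24 genes of fatty acid oxidation, 2 rose and 15 fell, 8 of these by at least 1, among them the rate-setting carnitine transferase of muscle, Cpt1b, from 287 to 318 CPM in DMSO2 to 31.3 to 77.6 in Dox, and the fatty acid activator Acsl1, at -2.11 ± 0.13.

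Of 28 genes of glycolysis and glucose uptake, 13 rose and 11 fell. Over all genes 40.4% rose and 41% fell, the shares to set beside each count in this paragraph. Phosphofructokinase of muscle, Pfkm, fell (-2.98 ± 0.05) and Pfkp rose (0.99 ± 0.12), the insulin-responsive carrier Slc2a4 fell (-1.71 ± 0.18) and Slc2a1 rose (0.60 ± 0.097), and Pgam2 fell (-3.28 ± 0.11) more than Pgam1 (-0.37 ± 0.097) on the log2 scale. Among the creatine kinases, the muscle form Ckm ran from 1180.1 to 1456 CPM in DMSO2 and 234 to 322 in Dox, and the brain form Ckb from 167 to 188 and 419 to 542. That list of creatine kinases and nucleotide shuttles had 4 rises and 6 falls in 11 genes. Of 20 regulators of mitochondrial number, 9 rose and 7 fell: the coactivators Ppargc1a (-2.18 ± 0.07) and Ppargc1b (-1.94 ± 0.12) and the receptor Rxrg (-4.79 ± 0.18) fell, and the mitochondrial helicase Twnk (1.43 ± 0.04) rose. Of 22 genes of mitochondrial dynamics, 3 rose and 13 fell, with Mfn1, which fuses outer membranes, at -1.73 ± 0.06 and the pore Vdac3 at -2.18 ± 0.07.

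Histone genes rose almost as a family. Histones package DNA, and most of their genes are used only while DNA is copied, with transcripts that end in a stem-loop in place of a polyA tail; the libraries here were made from polyA-selected RNA, and whether tails or amounts changed was not tested. Of 34 histone genes, 31 rose, 28 of them by at least 1, and H2az2 alone fell, at -0.93 ± 0.05. The median log2 fold change was 3.56 with genes at the floor set to their bounds. Hist1h2ai ran from 3.03 to 3.83 CPM (median 3.59) in DMSO2 and from 129 to 147 CPM (median 136) in Dox, and the linker histone H1f1 from 0.0582 to 0.642 CPM in DMSO2 and 23.7 to 29.0 in Dox. The replacement histone H3f3b, which has a polyA tail and is made all through the cell cycle, also rose, from 195 to 237 CPM in DMSO2 to 798 to 865 in Dox, while its twin H3f3a was at 0.081 ± 0.06 and did not pass the test. Several histone genes are near copies of each other, and reads shared between them could have been split among them by the counting, so single members are uncertain.

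Promoters of histone genes are shown because most of these genes rose together. RefSeq sequences of the build GRCr8 were matched for 32 of the 34 genes. In the 120 bases before the start, searched on both strands, CCAAT was found in 30 of the 32 (93.8%) against 20.1% of 27457 promoters, and TATAAA in 14 (43.8%) against 6.81%; these motifs do not overlap in the windows shown. Both were found in 14 (43.8%) against 1.33%. A match is a description of the letters and not a binding site. The 4 genes with the largest rises among those with a mean count of at least 100 and both motifs are printed 5′ to 3′ on the strand of the gene, with CCAAT (or its reverse complement) and TATAAA in capitals:
H1f1 (chr17:41794869-41794988, minus strand): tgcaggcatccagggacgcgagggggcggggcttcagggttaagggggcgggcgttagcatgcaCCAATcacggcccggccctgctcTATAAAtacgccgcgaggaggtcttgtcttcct
Hist1h2ai (chr17:47413933-47414052, plus strand): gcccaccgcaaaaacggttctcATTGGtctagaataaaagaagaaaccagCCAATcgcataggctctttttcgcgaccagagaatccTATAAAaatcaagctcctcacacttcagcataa
H2ac12 (chr17:47182073-47182192, plus strand): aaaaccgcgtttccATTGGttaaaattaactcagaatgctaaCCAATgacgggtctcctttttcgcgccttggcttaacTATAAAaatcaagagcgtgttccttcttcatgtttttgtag
Hist3h2ba (chr10:44225301-44225420, plus strand): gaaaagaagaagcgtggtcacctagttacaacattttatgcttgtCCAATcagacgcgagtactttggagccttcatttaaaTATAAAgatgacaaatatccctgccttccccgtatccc
H1f1 rose with a log2 fold change of 6.46 ± 0.21, Hist1h2ai with 5.26 ± 0.095, H2ac12 with 4.24 ± 0.19 and Hist3h2ba with 3.91 ± 0.12. In each window shown, TATAAA lies downstream of the nearest CCAAT.

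Genes that make and process RNA shifted in part. Of 34 genes of the RNA polymerase II machinery, 18 rose and 7 fell. Besides Polr2a, the initiation factor Gtf2b ran from 15.6 to 18.7 CPM (median 16.1) in DMSO2 and from 184 to 215 CPM (median 195) in Dox, and the P-TEFb inhibitor Hexim1 and kinase Cdk9 rose, at 1.66 ± 0.05 and 1.04 ± 0.04. The pausing factor Nelfa fell, at -1.35 ± 0.07. Of 32 splicing factors, 10 rose and 20 fell, and the muscle splicing regulators Rbm20 and Rbm24 fell most, at -2.27 ± 0.07 and -1.81 ± 0.08. Of 249 Zfp zinc finger genes, many of them DNA-binding repressors, 66 rose and 133 fell, with a median log2 fold change of -0.39.

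Ribosome-related lists differed by compartment. Of 67 cytosolic ribosomal protein genes, 39 rose and 7 fell, mostly by little (median 0.28 on the log2 scale), for example Rpl38 at 0.90 ± 0.09 and Rpl3 at -0.50 ± 0.08. Of 70 mitochondrial ribosomal protein genes, 16 rose and 39 fell, 18 of them by at least 1, for example Mrpl15 from 133 to 160.4 CPM in DMSO2 to 36.0 to 40.1 in Dox. Of 35 ribosome biogenesis genes, 23 rose and 8 fell: the pre-rRNA factors Nop16 and Rrp9 rose, at 2.98 ± 0.07 and 2.78 ± 0.07, and Polr1a and Polr1b, the large subunits of RNA polymerase I, fell, at -1.10 ± 0.08 and -0.98 ± 0.08. Of 30 translation factors, 12 rose and 15 fell, with the muscle elongation factor Eef1a2 at -2.55 ± 0.06 and Eif4b at -2.18 ± 0.05. Of 36 aminoacyl-tRNA synthetase genes, 9 rose and 16 fell, and of 38 proteasome genes, 10 rose and 20 fell, the largest rise being that of the immunoproteasome subunit Psmb9, at 3.45 ± 0.11.

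Immediate early factors, which respond to signals within minutes, stood higher after 24 hours of drug. Of 25, 23 rose, 20 of them by at least 1, and none fell. Fos ran from 4.40 to 6.70 CPM (median 4.97) in DMSO2 and from 80.02 to 143 CPM (median 110.0) in Dox, and Fosb had a log2 fold change of 5.43 ± 0.27. Jun, Egr1 and Klf4 rose, at 1.51 ± 0.10, 1.99 ± 0.13 and 2.69 ± 0.11, and the stress factor Atf3 by 3.33 ± 0.18. Nr4a1 varied widely among the Dox libraries, from 11.7 to 192 CPM, and Myc was at 0.26 ± 0.13 and did not pass the test.

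Among stress pathways, most NRF2 targets rose. Of 32 NRF2 targets and antioxidants, 20 rose and 9 fell. The quinone reductase Nqo1 ran from 24.2 to 37.8 CPM (median 31.2) in DMSO2 and from 157 to 221 CPM (median 206) in Dox, and the glutathione enzyme Gclc and the sulfiredoxin Srxn1 had log2 fold changes of 2.92 ± 0.07 and 3.19 ± 0.17. Keap1, the protein that holds NRF2 back, fell, at -2.13 ± 0.05, as did glutathione reductase Gsr, at -1.36 ± 0.06. Of 22 endoplasmic reticulum stress genes, 9 rose and 12 fell, with the chaperones Hspa5 and Pdia4 at -1.30 ± 0.07 and -1.34 ± 0.06. Of 23 ATF4 targets, 8 rose and 10 fell: Ddit3 rose (1.77 ± 0.07), and Atf4 itself (-0.70 ± 0.09) and Nupr1 (-2.67 ± 0.13) fell. Of 26 heat shock genes, 14 rose and 8 fell. The inducible chaperone Hspa1b ran from 7.86 to 10.0 CPM (median 8.90) in DMSO2 and from 359 to 517 CPM (median 482) in Dox, whereas its constitutive relative Hspa8 fell (-1.20 ± 0.09), as did the heart and muscle small heat shock protein Hspb7 (-2.11 ± 0.09).

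Inflammatory and interferon genes rose in part. Of 27 chemokines and cytokines, 14 rose and 9 fell, led in absolute level by Cx3cl1 and Csf1, which went from 24.2 to 29.3 and 66.8 to 83.9 CPM in DMSO2 to 122 to 188 and 201 to 249 in Dox. Lif, a cytokine of the interleukin 6 family, had a log2 fold change of 5.01 ± 0.23, and Il33, an alarm cytokine, fell, at -4.19 ± 0.24. Il6 itself was at least 5.43-fold higher and reached at most 1.501 CPM in a Dox library. Of 26 interferon response genes, 15 rose and 6 fell. The peptide transporter Tap1 ran from 12.9 to 16.7 CPM (median 15.8) in DMSO2 and from 261 to 328 CPM (median 300.0) in Dox and the factor Irf7 had 3.75 ± 0.14, while Ifit2 and Bst2 fell, at -1.38 ± 0.099 and -1.36 ± 0.17 on the log2 scale.

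The TGF-beta pathway rose more often than not: of 27 genes, 20 rose and 4 fell, with a median log2 fold change of 0.84. The targets Id1 and Id2, inhibitors of helix-loop-helix factors, had 3.98 ± 0.11 and 3.04 ± 0.08, the ligand Tgfb2 2.10 ± 0.18 and the inhibitory Smad7 1.95 ± 0.09. The receptors Tgfbr2 and Tgfbr3 fell, at -1.41 ± 0.06 and -2.13 ± 0.09, and Tgfbr1 rose, at 0.84 ± 0.06. Of 26 secreted factors of the Wnt, Notch and IGF pathways, 10 rose and 13 fell, among them Igfbp5 (-2.89 ± 0.24) and Igf1 (-2.28 ± 0.097), which fell, and the Notch ligand Jag2 (2.03 ± 0.08), which rose.

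Most matrix genes fell. Of 39 collagens and fibroblast matrix genes, 8 rose and 25 fell, 18 of these by at least 1. Postn, periostin of activated fibroblasts, ran from 1414 to 1604 CPM (median 1514) in DMSO2 and from 96.2 to 231 CPM (median 204) in Dox. The type VI chains Col6a1 and Col6a2 had log2 fold changes of -2.18 ± 0.099 and -2.38 ± 0.09, and the basement membrane chain Col4a1 fell less, at -0.53 ± 0.099. Timp1 and Timp3, inhibitors of matrix proteases, rose, at 1.57 ± 0.09 and 1.80 ± 0.09. All 12 fibroblast markers fell, with a median of -2.17, and they include several of the collagens. For this Dox dose and exposure time, the authors report significantly lower cell viability and significantly more cell death than in controls, measured in separate cultures. In bulk samples fewer cells of a type and less RNA per cell cannot be told apart. The part of cell death or cell composition in these falls was not tested.

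Markers of the other cells in the culture moved as follows. Of 11 endothelial markers, 1 rose and 9 fell, and their sum went from 392 to 500.3 CPM in DMSO2 to 169.7 to 245 in Dox. Cdh5, the adhesion protein of endothelium, ran from 87.0 to 117 CPM (median 98.5) in DMSO2 and from 5.08 to 10.4 CPM (median 8.38) in Dox, and Eng was the one that rose, at 0.69 ± 0.07. Of 13 macrophage markers, 1 rose and 11 fell, their sum being 133 to 164 CPM in DMSO2 and 58.4 to 76.6 in Dox. Of 8 smooth muscle markers, 5 rose, 3 of them by at least 1, and 2 fell. Those that rose include Des, which is also in the sarcomere list. Myosin Myh11 went from 12.4 to 17.6 CPM in DMSO2 to 77.7 to 99.8 in Dox. Cnn1 had a log2 fold change of 3.05 ± 0.25 (3.24 without Dox library 7), while the pericyte marker Rgs5 fell, at -3.35 ± 0.17. Smooth muscle actin, Acta2, hardly moved, at -0.045 (0.16 without library 7). Tagln, which both smooth muscle and immature heart muscle express, was at 77.6 CPM in Dox library 7 and 559.7 to 790.1 in the other Dox libraries, and its log2 fold change was 1.75 ± 0.27 (1.97 without library 7). Of 6 red cell genes, 5 rose and none fell, and the anion exchanger Slc4a1 among them ran from 3.35 to 6.63 CPM in DMSO2 and 55.6 to 85.6 in Dox. Of 12 cardiomyocyte markers, 1 rose (Nppa) and 9 fell.

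Membrane, lipid and drug-handling genes were divided, as were all genes, of which 40.4% were higher and 41% lower. Of 27 cholesterol and fatty acid synthesis genes, 10 rose and 12 fell, with Idi1 at 2.91 ± 0.15 and Fasn at 1.96 ± 0.10. Of 29 phospholipid synthesis genes, 15 rose and 12 fell: choline kinase Chka ran from 16.8 to 20.8 CPM (median 18.8) in DMSO2 and from 202 to 239 CPM (median 209.8) in Dox, and the first acyltransferase of the pathway, Gpam, had a log2 fold change of -2.13 ± 0.07. Of 36 nucleotide synthesis genes, 18 rose and 15 fell, with the salvage kinases Dck at 2.99 ± 0.12 and Tk1 at -1.04 ± 0.09. Of 11 drug efflux transporters, 4 rose and 4 fell. Abcb1a, a rat P-glycoprotein that exports Dox, ran from 60.9 to 71.5 CPM (median 69.0) in DMSO2 and from 279 to 377 CPM (median 314) in Dox. Of 11 genes linked to Dox metabolism, 5 rose and 3 fell, and carbonyl reductase Cbr3 rose, at 1.04 ± 0.11. Of 20 iron genes, 11 rose and 9 fell, with heme oxygenase Hmox1 at 2.01 ± 0.13. Of 32 autophagy and lysosome genes, 14 rose and 12 fell, with Ulk2 at 1.36 ± 0.06 and Atg10 at -1.94 ± 0.09. Of 18 clock genes, 9 rose and 5 fell, with Bmal1 at 2.11 ± 0.10 and Cry2 at -1.21 ± 0.05. Of 11 genes commonly used as references, 7 rose and 3 fell, and Ppia had 0.75 ± 0.06 and Sdha -0.74 ± 0.04.

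The earlier time point gave a smaller response, partly in other directions. At 6 hours, Dox against its own DMSO2 control called 64.2% of genes, 31.5% higher and 32.7% lower. Of the genes higher at 24 hours, 3338 were DEGs higher at 6 hours too, and of those lower at 24 hours, 3457 were lower at 6 hours. The direction turned for 617 genes that were higher at 6 and lower at 24 hours and for 592 that went the other way, while 3842 DEGs of 24 hours were no DEGs at 6 hours. The effect at 24 hours minus that at 6 hours passed the test for 64.8% of genes, 34% more positive and 30.8% more negative. With scaling to library size alone the split was 6234 more positive and 3379 more negative in place of 4946 and 4478.

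Sarcomere genes turned between the time points. At 6 hours 21 of the 37 were higher and 8 lower with a median log2 fold change of 0.39, at 24 hours 5 were higher and 30 lower, and the effect was more negative at 24 hours for 29 and more positive for 1. The genes with the largest turn from higher to lower included the muscle genes Myom2 (0.54 at 6 hours and -3.79 ± 0.15 at 24 hours), Xirp2 (3.0 and -1.18 ± 0.30, or -1.01 without Dox library 7) and Itgb1bp2, which encodes melusin (0.70 and -2.63 ± 0.14). Akap6 and Yipf7 completed the 5, with 0.28 and 0.52 at 6 hours and -3.53 ± 0.10 and -3.71 ± 0.19 at 24 hours. The genes with the largest turn from lower to higher were led by Cyp1a1, the cytochrome induced through the aryl hydrocarbon receptor, with -1.55 at 6 hours and 4.40 ± 0.19 at 24 hours. Periplakin Ppl (-1.10 and 2.80 ± 0.11), the protocadherin Pcdh17 (-1.51 and 1.93 ± 0.12), the nucleotide receptor P2ry6 (-1.05 and 2.36 ± 0.14) and the adhesion gene Flrt1 (-1.12 and 2.12 ± 0.17) followed on the same log2 scale.

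**Figure D4:**
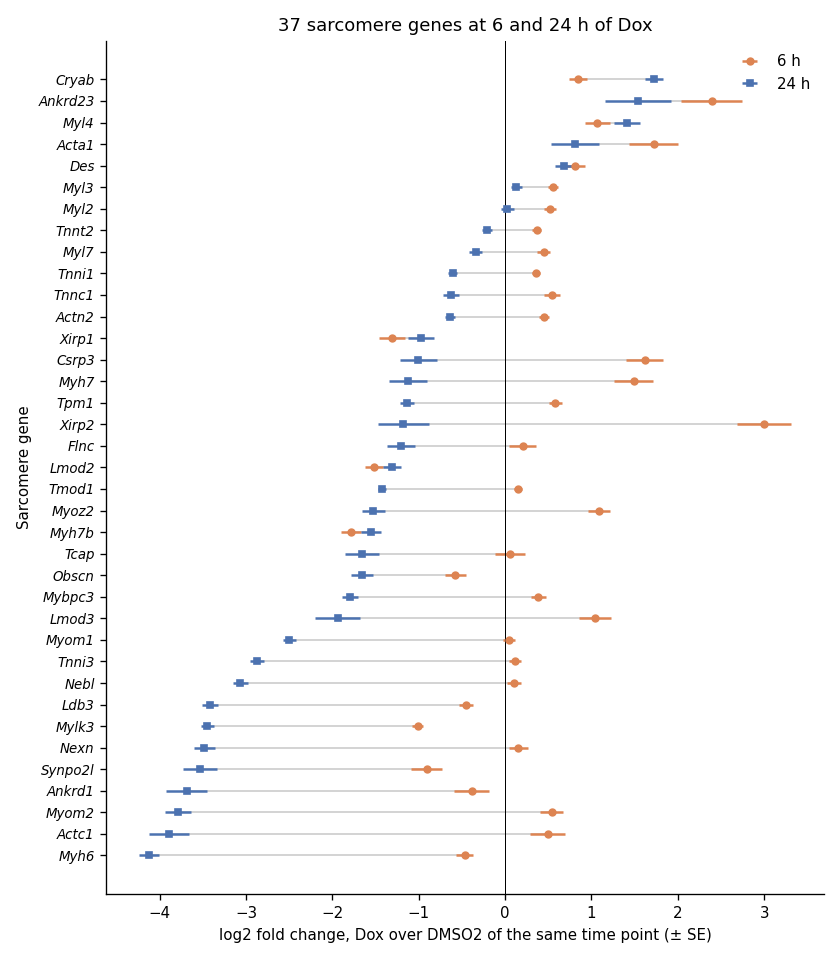
Log2 fold change of 37 sarcomere genes, Dox over the DMSO2 control of the same time point, at 6 hours (circles) and 24 hours (squares), with bars of ± 1 SE and genes ordered by their 24 hour value. Most circles lie right of 0 (median 0.39) and most squares left of it (median -1.31).

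Other lists also differed by time. Subunits of complex I were higher at 6 hours for 33 of 35 genes and lower for 0, and the effect was more negative at 24 hours for 25 and more positive for 0. Mitosis genes were higher for 9 and lower for 21 of 44 at 6 hours, and the effect was more positive at 24 hours for 27 and more negative for 3. Fatty acid oxidation genes were more negative at 24 hours for 18 of 24. Histones rose at both times, with a median log2 fold change of 0.93 at 6 hours, and the effect was more positive at 24 hours for 27 of 34. Channels and connexins were already lower at 6 hours for 24 of 30, with a median of -1.05.

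The other drugs at 24 hours are given only to place these values. Ace, tested against the same DMSO2 libraries, called 37.2% of genes, and 5FU, tested against DMSO1 libraries, 55.8%. Because Dox and Ace share their control libraries, their values stand side by side here and no overlap was drawn. Dox libraries set against Ace libraries directly differed for 80.6% of genes, 40.7% higher and 39.9% lower in Dox, and the Dox effect minus the 5FU effect passed the test for 71.1%, 35.8% more positive and 35.4% more negative. Cdkn1a had log2 fold changes of 3.44 with Dox, 1.17 with Ace and 2.10 with 5FU, Myh6 had -4.13, 0.095 and -0.87, and Nppa had 3.52, 0.74 and 1.88. Of the p53 targets, 32 of 36 were higher with Dox than with Ace and 30 had a more positive effect than with 5FU. For histones the counts were 27 and 29 of 34, for immediate early factors 23 and 22 of 25, and for the TGF-beta pathway 22 and 21 of 27. In the lower direction, sarcomere genes were lower with Dox than with Ace for 28 of 37 and had a more negative effect than with 5FU for 24, and all 12 fibroblast markers were lower than with Ace, 10 of them with a more negative effect than with 5FU. Collagens and fibroblast matrix did not follow this order, with 15 higher and 16 lower than with Ace and 16 more positive and 12 more negative than with 5FU, of 39 genes. Fibroblast markers fell with the other drugs too, 11 of 12 with Ace (median log2 fold change -1.03) and all 12 with 5FU (median -1.25).

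**Figure D5:**
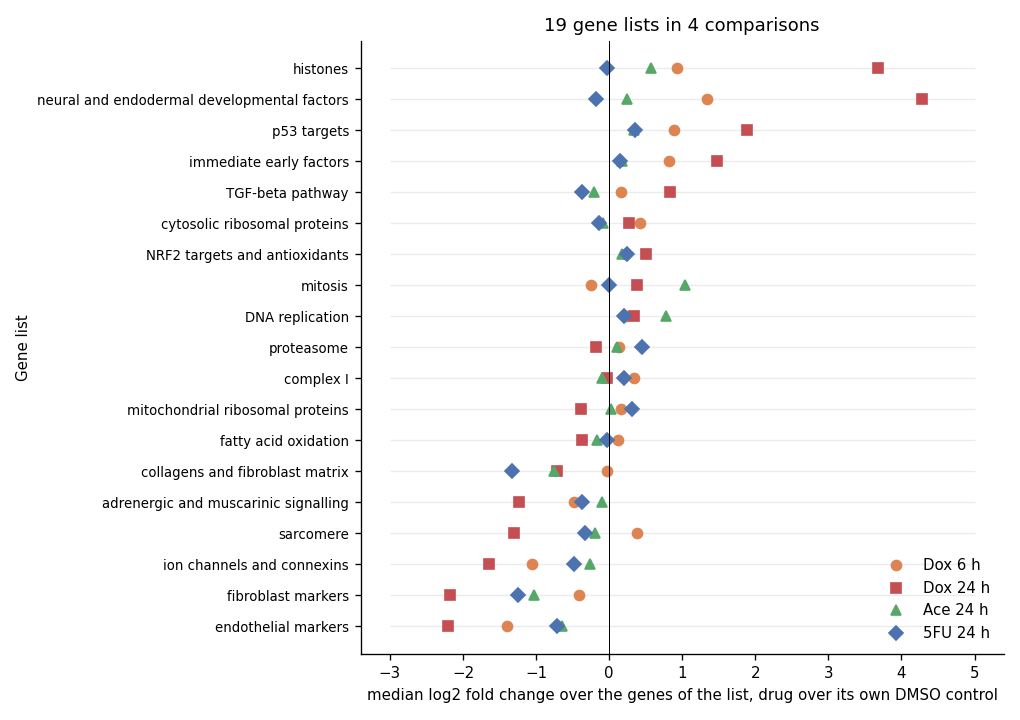
Median log2 fold change of 19 gene lists in 4 comparisons, each drug over its own DMSO control: Dox at 6 hours, Dox at 24 hours, Ace at 24 hours and 5FU at 24 hours. The fitted medians of histones and developmental factors are 3.68 and 4.28 with Dox at 24 hours (3.56 and 3.13 with bounds). They are 0.93 and 1.34 with Dox at 6 hours, and the collagen median is lowest with 5FU.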

How the data were processed

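RNA was sequenced from parallel cultures of 1 mixed preparation, as polyA-selected paired reads, in 7 libraries for each of Dox and DMSO2 at 24 hours. The authors estimated transcript abundance with kallisto 0.46.0 (submitters' processing notes), used tximport to obtain values per gene, left out scarcely counted genes and deposited estimated counts as whole numbers. No column was left unused. Groups came from the column labels, and libraries are numbered by column order. Gene symbols came from a reference table, and identifiers without a symbol are given as such. One edgeR 4.0.16 quasi-likelihood model (R 4.3.3, TMM scaling, minimum count 10 in a library, which removed 0 genes) was fitted to 65 libraries in 10 groups, and p-values were adjusted over 14554 genes. A bound of 3 counts per library was used as the floor, for which fold changes are given as at least. The floor covers counting error only. The SE was the absolute log2 fold change divided by the square root of the F statistic.

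On simulated data with 14554 genes for the Dox comparison, 81% of 100 genes changed by 0.5 on the log2 scale and 98% of 100 changed by 1 were recovered, with 2 false calls. The changed genes were drawn from those that were not scarce, and every other gene was left unchanged. In the data 81.4% of genes were DEGs, so the simulation does not test scaling or false calls in that setting. DESeq2 1.42.0, other scaling, filters and thresholds, and leaving out each library were alternatives. The 60 lists (1737 measured genes) and their members were chosen with earlier results of these data known. Genes were named as members of a list, as the 12 DEGs with the largest rise or fall (mean count of at least 100), as the 6 with the largest gain or loss in CPM, and as the 5 that turned most between 6 and 24 hours in each direction. RefSeq promoters matched 78.3% of genes, under the 80% needed, so promoters of the tested genes were not compared by their change, and the share of motifs over all RefSeq promoters is a description, and gene lengths or spans were not analysed here. Some genes that the rule names are not reported here.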

Additional observations from a re-analysis of the deposited data

Results flagged for a closer look

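Of 90 groups of 7 libraries examined for a single distant library, 18 had one. Chance gives about 1 in 20 for a single group. These groups share the same libraries and are not independent, so the count cannot be set against that rate. In 13 of the 18 it was Dox library 7. It held 25738297 counts against 15921229 to 17856544 in the other Dox libraries, its TMM factor was 0.963 against 1.02 to 1.06, and 165 genes lay off the group median by more than 1 on the log2 scale. In CPM it was lowest for Sox3 (7.22), Pou3f1 (5.00), Des (1606), Actc1 (90.1), Col3a1 (487) and Xirp2 (23.0), and highest for Flrt1 (17.1) and the identifiers 26195 (77551), 26202 (8917) and 26204 (16373). The other distant libraries were Dox library 2 for C6h14orf180 (0.623 CPM) and P2ry6 (13.4), Dox library 3 for Polr2a (1122), Dox library 6 for Myom2 (18.9) and DMSO2 library 3 for Cyp1a1 (1.34).

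The Dox effect differed between 24 and 6 hours for 9424 genes by the test of the difference itself. The log2 fold change at 24 hours minus that at 6 hours was -4.33 for Myom2, -4.23 for Yipf7, -4.18 for Xirp2, -3.82 for Akap6 and -3.33 for Itgb1bp2. It was 5.95 for Cyp1a1, 3.90 for Ppl, 3.44 for Pcdh17, 3.41 for P2ry6 and 3.24 for Flrt1.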

How the results depend on the processing

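Counts of DEGs moved with the minimum change asked for, as that choice is built to do: 5688 (2878 higher, 2810 lower) at a log2 fold change of at least 1, and 4365 (2201 higher, 2164 lower) in glmTreat tested against 1. Under the other alternatives the total was 11689 to 12823, and without 1 library 11708 to 11756. Library size alone gave the time difference as 6234 more positive and 3379 more negative. It also moved the median of all genes to 0.049, and DESeq2 size factors moved it to 0.045. Of the 60 list medians, 56 never changed sign. For complex I (-0.030) the median was 0.012 with size factors, 0.017 with library size alone, 0.013 with DESeq2 and -0.045 to 0.014 without 1 library. For complexes II to V (-0.023) it was 0.019, 0.024, 0.019 and -0.041 to 0.0070. Without 1 library it was -0.026 to 0.090 for topoisomerases and -0.030 to 0.092 for drug efflux transporters. The cause was not tested. Fitted log2 fold changes of genes at the floor moved most, such as Nkx6-1 (12.27 without DMSO2 library 2) and Cldn5 (-10.71 without Dox library 5). No paired analysis was possible because the columns carry no replicate numbers. Depth limits the genes near 3 counts.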
